A study of Homo sapiens with 3 samples.

Results

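The genes described here are 57 genes of the G1/S transition and of DNA replication in KYSE510, an established cell line of human esophageal squamous cell carcinoma. They were chosen by name for their known roles, with earlier results of these data known, and matched through their Entrez identifiers. All 57 were present among the 19266 genes of each table and among the 13580 genes that passed the filter on low counts. The study screened for targets of the long transcript TCONS_02256997. One group of cells received a lentivirus with the first hairpin RNA against that transcript (sh1), one a lentivirus with the second hairpin (sh2), and the control group a lentivirus with a scrambled hairpin. All 3 groups had 24 h of virus followed by 48 h in 4 µM puromycin, so the control shares infection and selection with the hairpin groups. Each group is 1 sample with 3 numbered tables, counted here as 3 libraries (n = 3). The labels do not say if these are separate cultures, so every SD, SE and adjusted p measures the spread between tables, which may be technical, and no test between samples was possible. The targeted transcript was not analysed here, so that its knockdown has no check.

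Cells commit to division when cyclin E with its kinase CDK2 inactivates the retinoblastoma protein and frees the E2F transcription factors, which switch on genes for DNA synthesis. In late mitosis and G1 the origin recognition complex, CDC6 and CDT1 load the ring-shaped MCM helicase onto DNA, a step called licensing. In S phase CDC45 and the GINS complex join the ring to make it an active helicase, DNA polymerases alpha, delta and epsilon copy the strands, the clamp PCNA holds them in place, and ribonucleotide reductase and thymidylate synthase supply the nucleotides. In squamous carcinomas, as in other tumours, these genes are widely used as markers of proliferating cells.

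Many of these genes are known in human and mouse cells as E2F targets, and their promoters were therefore read first. RefSeq promoter windows of build GRCh38.p14 were at hand for 49 of the 57 genes (66 windows, since some genes have several annotated starts). The 250 bases before each start were searched on both strands for 4 spellings of the E2F site, TTTGGCGC, TTTCCCGC, TTTGCCGC and TTTCGCGC. At least 1 match was found for 20 of the 49 genes (40.8%), against 710 of the 15292 measured genes with a window (4.64%). Measured genes here were drawn from all 19266, also those that did not pass the filter on low counts, which all members passed. Counted by window, 31.8% of the 66 windows held a match, against 3.48% of the 21589 windows of measured genes. Of the 29 matches in the members, 22 (75.9%) began within 100 bases of the start, against 329 of 790 matches over measured genes (41.6%). The letters CCAAT, bound by the factor NF-Y, occurred for 28 of the 49 genes (57.1%), against 40.6% of measured genes. The letters TTTGAA, the cell cycle homology region known from late cell cycle genes, occurred for 2 of them (4.08%), against 14.1%. A match is a run of letters and not a measured binding site.

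**Figure D1:**
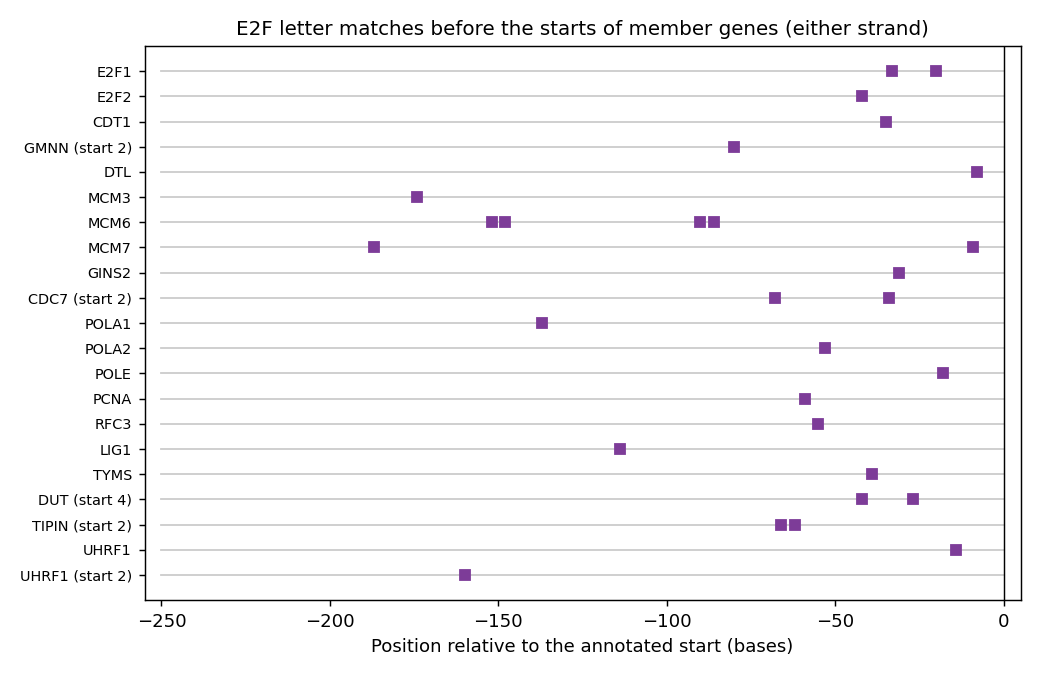
Positions of E2F letter matches (squares) before the annotated start of each member that has one, in bases, with the searched 250 bases as a grey line; a number in brackets tells apart the starts of a gene that has several. Of the 29 squares, 22 lie within 100 bases of the start.

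The stretches with matches are shown for 4 genes that were higher with both hairpins (E2F1, E2F2, MCM6 and PCNA) and for 2 that were lower with sh1 and higher with sh2 (GMNN and CDT1), to let the letters be set beside the expression values. Each is printed 5′ to 3′ in the direction of transcription, with 20 bases either side where the window before the start allows, and the capitals mark the E2F match on either strand. E2F1 lies on the minus strand of chr20:33686386-33686438, E2F2 on the minus strand of chr1:23531248-23531295, MCM6 on the minus strand of chr2:135876502-135876615 and PCNA on the minus strand of chr20:5126654-5126701. GMNN (its second start) lies on the plus strand of chr6:24775313-24775360 and CDT1 on the plus strand of chr16:88803734-88803781. In MCM6 each of the capital runs holds a match on each strand, which overlap. POLA1 and RFC3, which hold a match and were called with neither hairpin, are not printed.
E2F1: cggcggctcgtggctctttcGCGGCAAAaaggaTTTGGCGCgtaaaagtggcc
E2F2: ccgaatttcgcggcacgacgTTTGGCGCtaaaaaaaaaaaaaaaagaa
MCM6: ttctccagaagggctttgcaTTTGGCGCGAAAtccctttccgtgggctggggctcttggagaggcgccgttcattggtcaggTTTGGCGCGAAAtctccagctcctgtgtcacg
PCNA: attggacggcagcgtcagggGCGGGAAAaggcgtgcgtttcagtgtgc
GMNN: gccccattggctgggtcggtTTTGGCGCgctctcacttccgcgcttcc
CDT1: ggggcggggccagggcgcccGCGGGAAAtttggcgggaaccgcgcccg

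Total expected counts per library were 14660821 to 14770512 with sh1, 15759270 to 16092417 with sh2 and 15012961 to 15414591 in control. The squamous identity of the line was checked with 12 epithelial markers, and all 12 passed the filter. Their summed level was 5220 to 5320 TPM (a level per length and library total) with sh1, 6080 to 6170 with sh2 and 7060 to 7160 in control. Most of it was KRT17 (mean 2680 TPM with sh1, 3920 with sh2 and 4250 in control) and KRT5 (1010, 976 and 1610). The markers did not move together. By edgeR's quasi-likelihood test (adjusted p below 0.05), 4 were higher and 6 lower than control with sh1, and 3 higher and 7 lower with sh2. Of all genes tested, 34.7% were higher and 34.6% lower with sh1, and 34.2% and 34.3% with sh2. KRT14 was lower with both hairpins (mean 12 TPM with sh1, 24.8 with sh2 and 51.8 in control) and EPCAM higher (928, 657 and 484). TP63 was lower with both hairpins (109, 120 and 275) and SOX2 higher (47.6, 32.7 and 20.6), while PKP1 was low throughout (1.36, 1.12 and 1.7). Fibroblast markers summed to 21.5 to 24.7 TPM with sh1, 26.7 to 28.2 with sh2 and 20.2 to 21.5 in control, nearly all of it COL1A1, and 7 of the 8 genes did not pass the filter; DCN and THY1 were at 0 with sh1, COL1A2 with sh2, and COL1A2, PDGFRB and THY1 in control. Endothelial markers summed to 7.49 to 10.7 TPM with sh1, 7.78 to 8.93 with sh2 and 6.39 to 7.25 in control, where TEK was at 0. Of these 5 genes, 3 passed the filter. CDH5 had a mean of 7.61 TPM with sh1, 6.86 with sh2 and 4.72 in control. VWF had 0.637, 0.41 and 1.04 in the same order, and PECAM1 0.81, 0.783 and 0.837. Leukocyte markers summed to 173 to 180 TPM with sh1, 157 to 178 with sh2 and 114 to 122 in control, of which CD68, a lysosomal protein, made up most. Of these 8 genes, 4 passed the filter. Beside CD68 they were LYZ (mean 11.9 TPM with sh1, 9.78 with sh2 and 9.4 in control), PTPRC (3.63, 2.88 and 2.43) and CD14 (1.31, 2.72 and 1.62). The B cell gene MS4A1 was at 0 in all libraries, and the T cell genes CD3E and CD3D in those of sh2 and control. The part of these lists in the results was not tested.

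As a group, the replication genes stood higher with each hairpin than with the scrambled control, but the members did not move as a block. Against control, 40 of the 57 were called higher and 6 lower with sh1, and 43 were called higher and 9 lower with sh2 (edgeR's quasi-likelihood test, adjusted p below 0.05 over all 13580 genes). Over all genes tested, 34.7% were called higher and 34.6% lower with sh1, and 34.2% higher and 34.3% lower with sh2. These shares also stand beside the counts by role below, each of which rests on few genes. The median log2 fold change of the members was 0.45 with sh1 and 0.42 with sh2, against 0.01 and 0.00 over all genes. The summed level of the 57 genes was 5042 to 5055 TPM with sh1, 4880 to 5024 TPM with sh2 and 3681 to 3693 TPM in control, so that neither hairpin group overlapped the control. In bulk RNA, more cells in S phase and more RNA per cell cannot be told apart. Both hairpins were set against the same control libraries, so their rises are not independent of each other. The members were chosen with earlier results of these data known, so their shares and medians are a description only. The strand used in counting was not stated, and 10 members overlap another measured gene in RefSeq and are less certain: CCNE2, ORC1, MCM7, GINS2, PRIM2, RFC5, RPA3, TYMS, UHRF1 and CHAF1A.

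**Figure D2:**
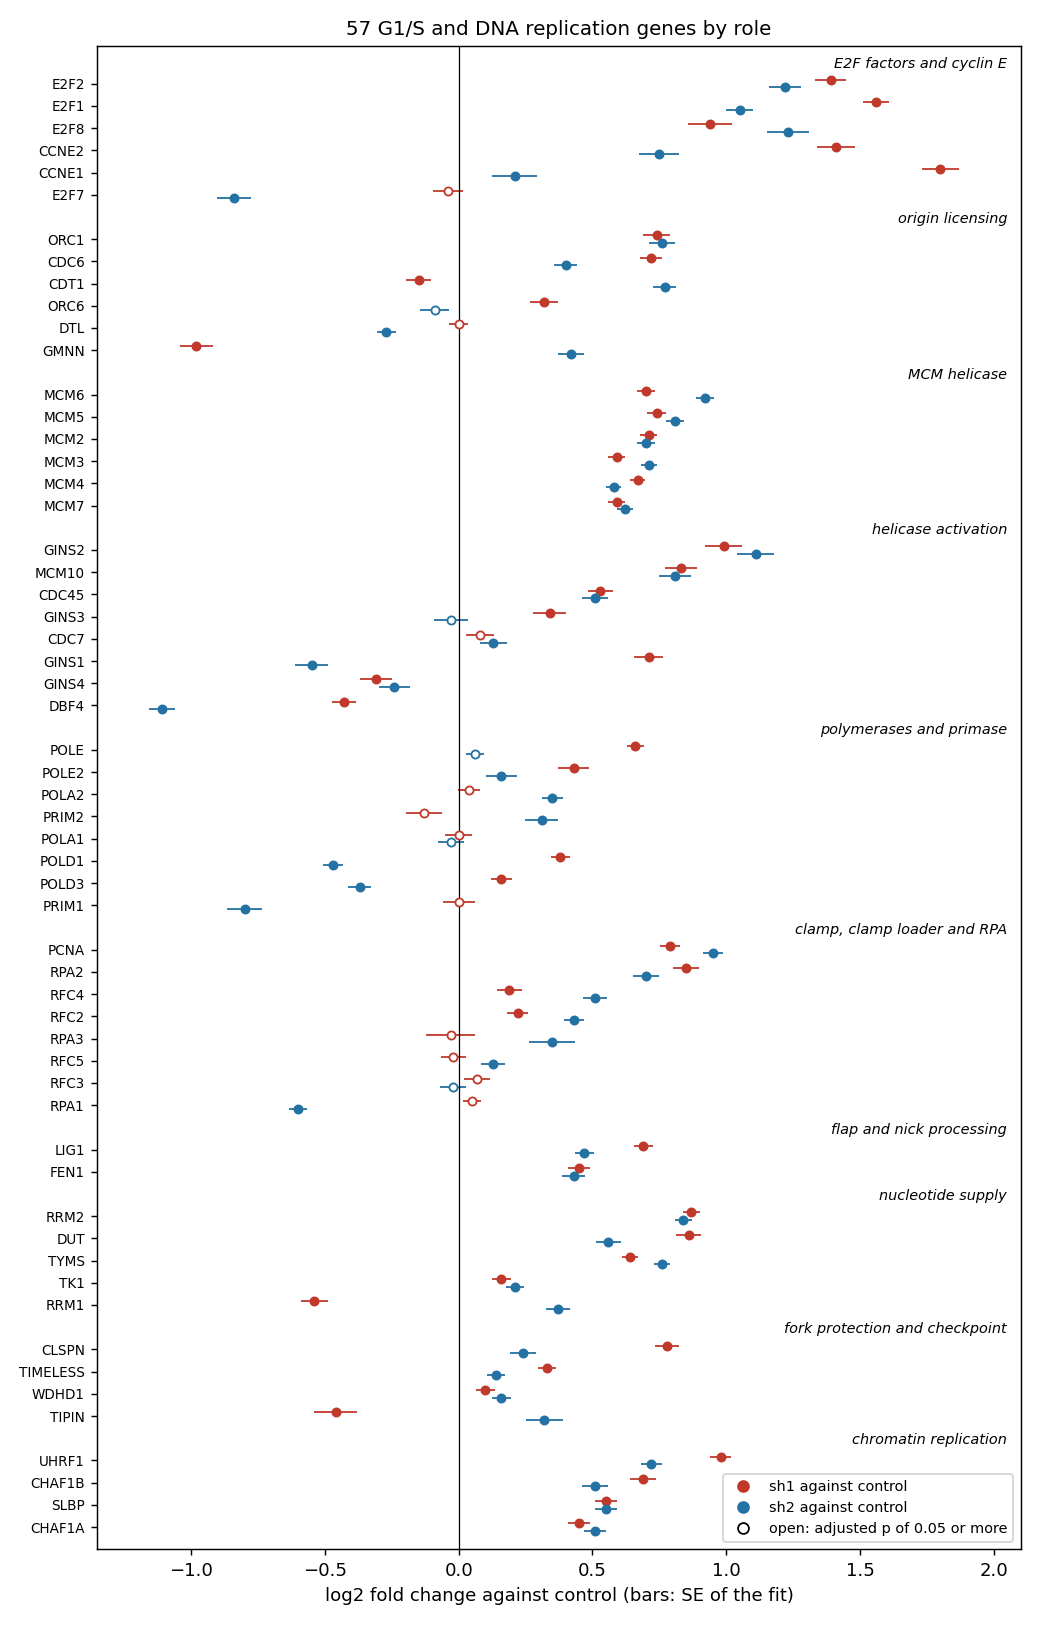
Log2 fold change against control of each of the 57 genes with sh1 (red) and sh2 (blue), by role, with bars for the SE of the fit; open points had an adjusted p of 0.05 or more. The MCM genes lie close together on the right (0.58 to 0.92), while GMNN, GINS1, RRM1 and TIPIN have their points on opposite sides of 0.

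The E2F factors and the E-type cyclins held the greatest rise of the list with each hairpin, CCNE1 with sh1 and E2F8 with sh2, and 5 of the 6 genes were called higher with each. E2F1 (Entrez gene 1869), the activator best known for driving entry into S phase, had 89.5, 97.1 and 88.4 CPM (counts scaled to the library total) with sh1, 65.4, 65.1 and 63.0 CPM with sh2, and 31.4, 29.7 and 32.4 CPM in control. All 6 hairpin libraries lay above every control library, and sh1 lay above sh2, with fold changes of 2.94 for sh1 and 2.07 for sh2 against control. E2F2 (1870), a second activator, had 62.0, 55.4 and 56.7 CPM with sh1, 47.8, 53.6 and 53.2 CPM with sh2, and 22, 21.4 and 22.9 CPM in control. Its log2 fold changes were 1.39 ± 0.059 with sh1 and 1.22 ± 0.06 with sh2 (SE), and the difference between the hairpins, here and throughout sh1 minus sh2, was 0.17 ± 0.05 (adjusted p = 0.00327).

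E2F7 and E2F8 are atypical members of the family that bind DNA without a partner and repress the same targets late in S phase. E2F8 (79733) had 18.8, 18.0 and 18.2 CPM with sh1, 21.9, 22.7 and 22.4 CPM with sh2, and 8.52, 10.3 and 9.83 CPM in control. It rose by 0.94 ± 0.083 with sh1 and 1.23 ± 0.079 with sh2, and the hairpins differed by -0.28 ± 0.069. E2F7 (144455) did not share this rise: it had 41.8, 41.1 and 44.7 CPM with sh1, 26.7, 23.1 and 23.5 CPM with sh2, and 42.4, 47.2 and 41.6 CPM in control. The sh1 libraries overlapped the control (log2 fold change -0.04 ± 0.056, adjusted p = 0.55), while with sh2 it fell by 0.84 (log2, adjusted p = 4.41e-13).

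CCNE1 (898) encodes cyclin E1, the CDK2 partner of the G1/S step. Its level was 44.9, 43.6 and 44.4 CPM with sh1, 13.8, 15.9 and 14.4 CPM with sh2, and 13.6, 13.3 and 11.1 CPM in control. With sh1 it was 3.49 times control, the largest rise among the 57 genes with that hairpin, and 3.01 times the level with sh2. With sh2 the log2 fold change was 0.21 ± 0.084 (adjusted p = 0.027), a call that was lost without control library 3 (0.12, adjusted p = 0.228) or without sh2 library 2 (0.15, adjusted p = 0.17), and in DESeq2 (adjusted p = 0.0713). CCNE2 (9134), its paralog, had 30.7, 32.2 and 31.4 CPM with sh1, 21.1, 18.5 and 20.1 CPM with sh2, and 11.8, 11.6 and 12.1 CPM in control. No group overlapped another, and the log2 fold changes were 1.41 ± 0.07 with sh1 and 0.75 ± 0.075 with sh2. Both cyclin E genes therefore stood higher with sh1 than with sh2, by 1.59 ± 0.066 for CCNE1 and 0.66 ± 0.062 for CCNE2 on the log2 scale.

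**Figure D3:**
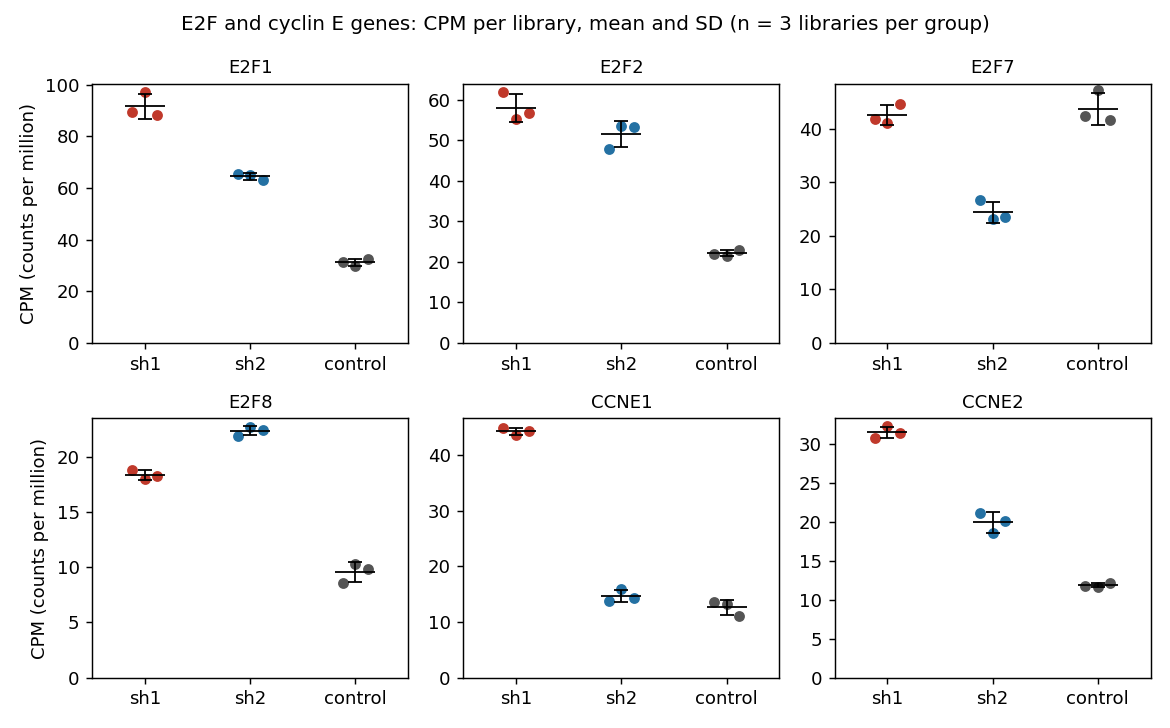
CPM in each library (points) of the E2F and cyclin E genes with sh1, sh2 and control, with the mean and SD (n = 3). E2F1, E2F2, E2F8 and CCNE2 lie above control in all 6 hairpin libraries, CCNE1 stands apart with sh1, and E2F7 is low with sh2.

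Of the 6 genes of origin licensing, 3 were called higher and 2 lower with sh1, and 4 higher and 1 lower with sh2. The shares over all genes tested were 34.7% higher and 34.6% lower with sh1, and 34.2% and 34.3% with sh2. ORC1 (4998), the largest subunit of the origin recognition complex, had 49.5, 49.0 and 51.0 CPM with sh1, 50.8, 51.5 and 48.8 CPM with sh2, and 29.2, 29.0 and 31.2 CPM in control. Its log2 fold changes were 0.74 ± 0.05 with sh1 and 0.76 ± 0.05 with sh2, and the difference between hairpins was -0.02 ± 0.045 (adjusted p = 0.758). CDC6, the loader ATPase, rose by 0.72 ± 0.041 with sh1 and 0.40 ± 0.042 with sh2. ORC6 rose with sh1 (0.32 ± 0.052) and had -0.09 ± 0.054 with sh2 (adjusted p = 0.121).

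CDT1 and geminin are partners: CDT1 brings the helicase to origins, and geminin, the product of GMNN, binds CDT1 and blocks relicensing after S phase begins. CDT1 (81620) had 58.5, 59.5 and 58.6 CPM with sh1, 104, 115 and 115 CPM with sh2, and 64.7, 67.7 and 63.9 CPM in control. GMNN (51053) had 21.1, 21.0 and 21.1 CPM with sh1, 54.0, 58.4 and 53.4 CPM with sh2, and 44.5, 39.8 and 39.9 CPM in control. Both genes were thus lowest with sh1 and highest with sh2, with no overlap between groups, and the fall of GMNN with sh1, to 0.509 of control, was the largest fall in the list with that hairpin. Per length, the ratio of CDT1 to GMNN was 1.2 ± 0.0108 with sh1, 0.878 ± 0.0568 with sh2 and 0.691 ± 0.0525 in control (SD, n = 3, ratio of TPM), since GMNN fell further than CDT1 with sh1 and rose less with sh2. DTL (51514), the substrate receptor of the ubiquitin ligase that destroys CDT1 in S phase, had 92.1, 93.5 and 95.6 CPM with sh1, 79.9, 76.5 and 77.0 CPM with sh2, and 92.1, 94.5 and 94.8 CPM in control. Its log2 fold change was 0.00 ± 0.036 with sh1 and -0.27 ± 0.037 with sh2.

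The subunits of the MCM helicase, 6 related ATPases that form 1 ring, moved within a narrow range. All 6 were called higher with each hairpin, by 0.59 to 0.74 on the log2 scale with sh1 and by 0.58 to 0.92 with sh2, with adjusted p-values of at most 6.94e-17. MCM2 had 260, 276 and 261 CPM with sh1, 264, 272 and 256 CPM with sh2, and 165, 159 and 162 CPM in control. MCM6 had 149, 157 and 157 CPM with sh1, 179, 183 and 179 CPM with sh2, and 94.7, 94.9 and 95.6 CPM in control. MCM2 differed between the hairpins by 0.01 ± 0.031 (adjusted p = 0.822), while MCM6 was lower with sh1 than with sh2 (difference -0.22 ± 0.031). MCM3 had 228, 235 and 229 CPM with sh1, 249, 255 and 252 CPM with sh2, and 153, 153 and 155 CPM in control, and the hairpins differed by -0.13 ± 0.029. MCM4 had 500, 492 and 502 CPM with sh1, 481, 460 and 457 CPM with sh2, and 318, 314 and 304 CPM in control. It was the single subunit called higher with sh1 than with sh2 (difference 0.10 ± 0.027). MCM5 had 160, 158 and 162 CPM with sh1, 165, 167 and 169 CPM with sh2, and 98.2, 91.5 and 96.5 CPM in control. MCM7 had 317, 328 and 311 CPM with sh1, 319, 333 and 325 CPM with sh2, and 214, 212 and 207 CPM in control. The difference between hairpins was not called for MCM5 (-0.06 ± 0.032) or MCM7 (-0.03 ± 0.029). Per length, MCM7 was the highest and MCM6 the lowest subunit in every group, at 253 and 97.8 TPM with sh1, 255 and 112 TPM with sh2, and 173 and 62.2 TPM in control, which is a ratio of 2.59 with sh1, 2.27 with sh2 and 2.79 in control.

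Factors that turn the loaded ring into a moving helicase did not follow it evenly. CDC45, MCM10 and GINS2 rose with both hairpins. With sh1 the rise was 0.53 ± 0.048 for CDC45, which joins the ring, 0.83 ± 0.06 for MCM10, which helps to activate it, and 0.99 ± 0.07 for GINS2, and with sh2 it was 0.51 ± 0.048, 0.81 ± 0.06 and 1.11 ± 0.068 for the same genes. GINS2 (51659) had 26.5, 29.6 and 30.7 CPM with sh1, 31.6, 30.8 and 31.6 CPM with sh2, and 14.1, 15.0 and 14.6 CPM in control. GINS1 (9837), which sits in the same complex of 4 proteins, had 44.7, 47.5 and 44.0 CPM with sh1, 18.6, 19.0 and 19.2 CPM with sh2, and 26.5, 28.2 and 28.6 CPM in control. It was therefore higher than control with sh1 (0.71 ± 0.053) and lower with sh2 (-0.55 ± 0.062), and its level with sh1 was 2.4 times that with sh2. GINS4 had 31.0, 30.8 and 27.1 CPM with sh1, 32.7, 31.1 and 29.3 CPM with sh2, and 35.9, 38.8 and 35.5 CPM in control, with log2 fold changes of -0.31 ± 0.06 with sh1 (adjusted p = 4.05e-05) and -0.24 ± 0.059 with sh2 (adjusted p = 0.000599). GINS3 rose with sh1 (0.34 ± 0.062) and had -0.03 ± 0.064 with sh2. In TPM the highest and lowest GINS genes were 59.3 and 18.5 with sh1 (GINS2 and GINS4), 63.3 and 13.6 with sh2 (GINS2 and GINS1) and 30.8 and 21 in control (GINS2 and GINS1), a ratio of 3.2 with sh1, 4.64 with sh2 and 1.47 in control.

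CDC7 and DBF4 form the kinase that fires licensed origins by phosphorylating the MCM ring, with DBF4 as the activating subunit. DBF4 (10926) had 44.0, 44.7 and 43.9 CPM with sh1, 25.9, 29.0 and 27.9 CPM with sh2, and 59.1, 59.5 and 59.9 CPM in control. The groups did not overlap, the log2 fold changes were -0.43 ± 0.045 with sh1 and -1.11 ± 0.049 with sh2, and the fall with sh2, to 0.464 of control, was the largest fall in the list. The kinase subunit CDC7 had log2 fold changes of 0.08 ± 0.052 with sh1 (adjusted p = 0.195) and 0.13 ± 0.051 with sh2 (adjusted p = 0.0278).

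**Figure D4:**
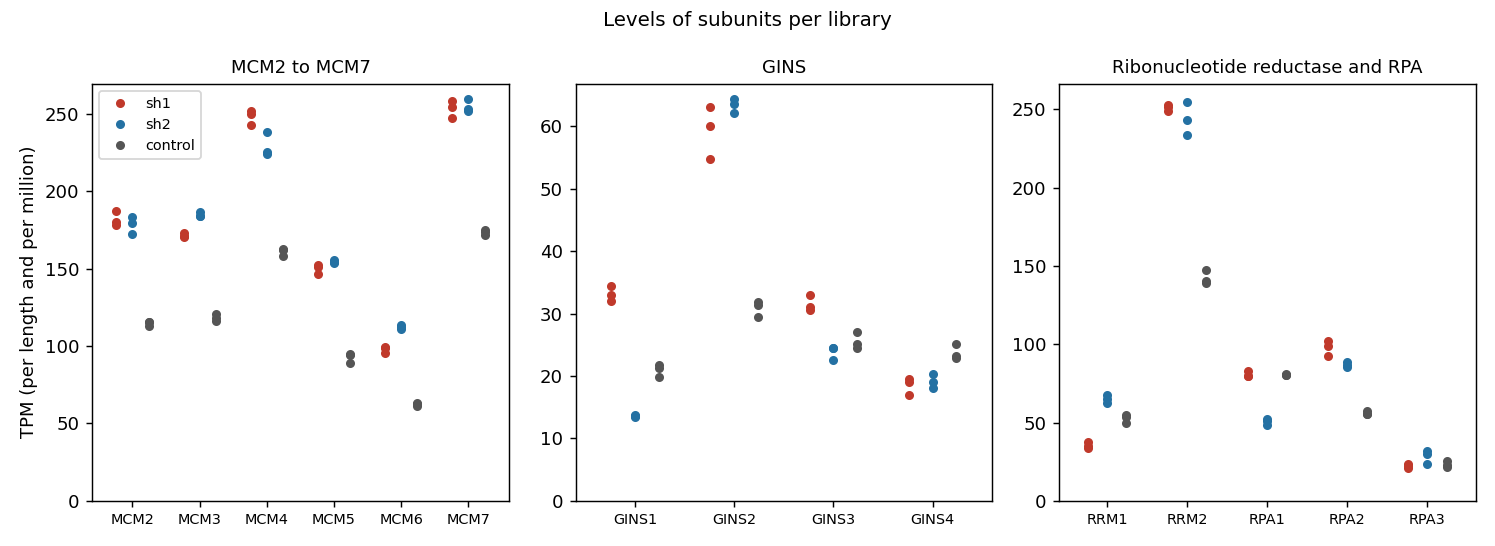
TPM in each library (points) of subunits of the MCM ring, of GINS, and of ribonucleotide reductase and RPA, with sh1 (red), sh2 (blue) and control (grey). The 6 MCM genes shift up together, whereas GINS1 and GINS2, and RRM1 and RRM2, do not keep their control proportions.

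The 8 genes of the replicative polymerases had a median of 0.10 with sh1 and 0.01 with sh2. With sh1, 4 were called higher and 0 lower, against 34.7% and 34.6% of all genes tested. With sh2, 3 were called higher and 3 lower, against 34.2% and 34.3%. POLE (5426), the catalytic subunit of the leading-strand polymerase epsilon, had 238, 226 and 239 CPM with sh1, 159, 154 and 152 CPM with sh2, and 150, 151 and 145 CPM in control. It rose with sh1 (0.66 ± 0.032) and had 0.06 ± 0.034 with sh2 (adjusted p = 0.115). Its partner POLE2 rose by 0.43 ± 0.057 with sh1 and 0.16 ± 0.058 with sh2 (adjusted p = 0.0141). POLD1 (5424), the catalytic subunit of polymerase delta, had 128, 122 and 125 CPM with sh1, 68.1, 69.1 and 72.1 CPM with sh2, and 96.7, 97.4 and 94.7 CPM in control. POLD3, its accessory subunit, had 86.3, 79.5 and 83.6 CPM with sh1, 58.6, 55.6 and 58.2 CPM with sh2, and 73.8, 75.4 and 73.3 CPM in control. Both polymerase delta genes were above control with sh1 (0.38 ± 0.035 for POLD1 and 0.16 ± 0.04 for POLD3) and below it with sh2 (-0.47 ± 0.038 and -0.37 ± 0.042).

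Polymerase alpha and its primase start each new strand with a short primer. POLA1 (5422), the catalytic subunit, had 47.5, 50.3 and 51.7 CPM with sh1, 48.6, 47.4 and 50.6 CPM with sh2, and 46.5, 51.2 and 52.1 CPM in control. The groups overlapped, and the log2 fold changes of 0.00 ± 0.05 with sh1 (adjusted p = 0.953) and -0.03 ± 0.049 with sh2 (adjusted p = 0.583) were not called. PRIM1 (5557), the catalytic primase subunit, had 24.8, 26.2 and 26.9 CPM with sh1, 15.3, 15.1 and 14.4 CPM with sh2, and 25.3, 25.9 and 26.7 CPM in control, and so fell with sh2 to 0.575 of control and overlapped it with sh1. The regulatory subunits POLA2 and PRIM2 were not called with sh1 (0.04 ± 0.041 for POLA2 and -0.13 ± 0.067 for PRIM2) and rose with sh2 (0.35 ± 0.039 for POLA2 and 0.31 ± 0.062 for PRIM2).

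PCNA (5111) had 162, 164 and 175 CPM with sh1, 189, 193 and 179 CPM with sh2, and 98.4, 97.1 and 94.6 CPM in control. Its log2 fold changes were 0.79 ± 0.038 with sh1 and 0.95 ± 0.037 with sh2, with no overlap of either hairpin group with control. RFC genes encode the loader of this clamp. RFC2 rose by 0.22 ± 0.04 with sh1 and 0.43 ± 0.038 with sh2, as did RFC4, by 0.19 ± 0.048 with sh1 and 0.51 ± 0.046 with sh2. RFC5 had -0.02 ± 0.046 with sh1 and rose by 0.13 ± 0.045 with sh2. RFC3 (5983) had 60.3, 61.3 and 62.4 CPM with sh1, 62.5, 55.9 and 54.3 CPM with sh2, and 61.2, 56.7 and 56.8 CPM in control, and was called with neither hairpin (0.07 ± 0.049 with sh1 and -0.02 ± 0.048 with sh2). The subunits of RPA, the trimer that coats single-stranded DNA, differed from each other. RPA1 (6117), the large subunit, had 143, 146 and 150 CPM with sh1, 95.2, 94.5 and 89.1 CPM with sh2, and 142, 141 and 141 CPM in control. With sh2 it fell by 0.60 (log2, adjusted p = 1.67e-15), while RPA2 rose by 0.85 ± 0.048 with sh1 and 0.70 ± 0.048 with sh2. RPA3 had -0.03 ± 0.092 with sh1 and 0.35 ± 0.086 with sh2, and among the members it had the widest spread between libraries, a CV of 15.5% with sh2 against a median of 3.02% over the 57 genes in that group.

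FEN1, which removes flaps from Okazaki fragments, and LIG1, the ligase that seals them, were higher with both hairpins. FEN1 (2237) had 66.0, 71.2 and 68.3 CPM with sh1, 67.7, 67.8 and 66.9 CPM with sh2, and 49.3, 50.2 and 50.7 CPM in control. LIG1 (3978) had 163, 172 and 173 CPM with sh1, 142, 146 and 148 CPM with sh2, and 105, 101 and 108 CPM in control. FEN1 rose by 0.45 ± 0.042 with sh1 and 0.43 ± 0.042 with sh2, and the hairpins differed by 0.02 ± 0.04 (adjusted p = 0.629). LIG1 was higher with sh1 than with sh2 by 0.22 ± 0.033.

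Nucleotide supply genes rose with both hairpins for 4 of 5 members. RRM2 (6241), the S-phase subunit of ribonucleotide reductase, had 340, 350 and 341 CPM with sh1, 351, 325 and 339 CPM with sh2, and 186, 195 and 184 CPM in control. RRM1 (6240), the large subunit of the same enzyme, had 45.7, 50.7 and 45.1 CPM with sh1, 91.7, 85.2 and 89.4 CPM with sh2, and 71.8, 69.7 and 64.4 CPM in control. RRM2 was 1.82 times control with sh1 and 1.79 times control with sh2, whereas RRM1 was lower than control with sh1 (-0.54 ± 0.05) and higher with sh2 (0.37 ± 0.045). The ratio of RRM2 to RRM1 in TPM was 7.08 ± 0.314 with sh1, 3.75 ± 0.0113 with sh2 and 2.7 ± 0.145 in control (SD, n = 3). TYMS, the thymidylate synthase, rose by 0.64 ± 0.03 with sh1 and 0.76 ± 0.03 with sh2 and was the most abundant member per length, at 699 ± 5.38 TPM with sh1, 750 ± 26.8 with sh2 and 465 ± 9.58 in control (SD, n = 3). DUT, which clears dUTP, rose by 0.86 ± 0.046 with sh1 and 0.56 ± 0.047 with sh2. The salvage kinase TK1 rose by 0.16 ± 0.034 with sh1 and 0.21 ± 0.034 with sh2.

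Among genes that protect the fork, CLSPN (63967), the adaptor that passes the checkpoint signal to CHK1, had 97.3, 91.0 and 89.3 CPM with sh1, 60.7, 64.7 and 64.5 CPM with sh2, and 50.7, 53.5 and 56.9 CPM in control. It rose by 0.78 ± 0.045 with sh1 and 0.24 ± 0.048 with sh2. TIPIN (54962), which binds TIMELESS at the fork, had 16.0, 18.1 and 14.7 CPM with sh1, 30.6, 26.4 and 26.5 CPM with sh2, and 22.4, 22.5 and 22 CPM in control. TIPIN was below control with sh1 (-0.46 ± 0.079) and above it with sh2 (0.32 ± 0.07), while TIMELESS rose with both (0.33 ± 0.033 with sh1 and 0.14 ± 0.033 with sh2). WDHD1, which ties polymerase alpha to the helicase, rose by 0.10 ± 0.037 with sh1 (adjusted p = 0.0164) and 0.16 ± 0.037 with sh2.

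All 4 chromatin genes were higher with both hairpins. UHRF1 (29128), which brings the maintenance DNA methyltransferase to new DNA, had 120, 117 and 112 CPM with sh1, 97.5, 98.8 and 94.6 CPM with sh2, and 57.6, 59.5 and 59.9 CPM in control. CHAF1A (10036), the large subunit of the histone chaperone CAF-1, had 106, 97.1 and 103 CPM with sh1, 104, 105 and 110 CPM with sh2, and 76.1, 75.9 and 72.0 CPM in control. The hairpin libraries of both genes lay above all control libraries, by 0.98 ± 0.039 with sh1 and 0.72 ± 0.04 with sh2 for UHRF1, and by 0.45 ± 0.041 with sh1 and 0.51 ± 0.04 with sh2 for CHAF1A. CHAF1B, its partner in CAF-1, rose by 0.69 ± 0.049 with sh1 and 0.51 ± 0.05 with sh2, and SLBP, which binds the stem-loop of histone messages, by 0.55 ± 0.04 with each hairpin.

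The direct comparison of the hairpins needs no control. Of the 57 genes, 25 were called higher with sh1 than with sh2 and 15 lower, against 34.2% and 35.6% of all genes tested, and the median difference was 0.02 on the log2 scale. The list as a whole therefore differed little on balance, while single members differed in both directions, from -1.39 ± 0.058 for GMNN to 1.59 ± 0.066 for CCNE1. After these, the largest differences were those of GINS1 (1.26 ± 0.057), CDT1 (-0.92 ± 0.043) and RRM1 (-0.91 ± 0.048), with adjusted p-values of at most 1.43e-16 for the 5 genes. Because the 5 were picked by the size of this same difference, small p-values for them are no added evidence. Against control, 7 of the 57 members (12.3%) were called in opposite directions, near the 12.7% of all genes tested. CDT1, GMNN, RRM1 and TIPIN were lower with sh1 and higher with sh2, and GINS1, POLD1 and POLD3 were higher with sh1 and lower with sh2. On a principal component analysis of the 57 genes, the first component (65.1% of the variance) set both hairpins apart from control (2.84 to 2.93). It also set sh1 (-2.02 to -1.93) apart from sh2 (-0.97 to -0.85). The second component (33%) set sh1 (-1.62 to -1.47) apart from sh2 (1.94 to 2.03), with control between them (-0.51 to -0.38).

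**Figure D5:**
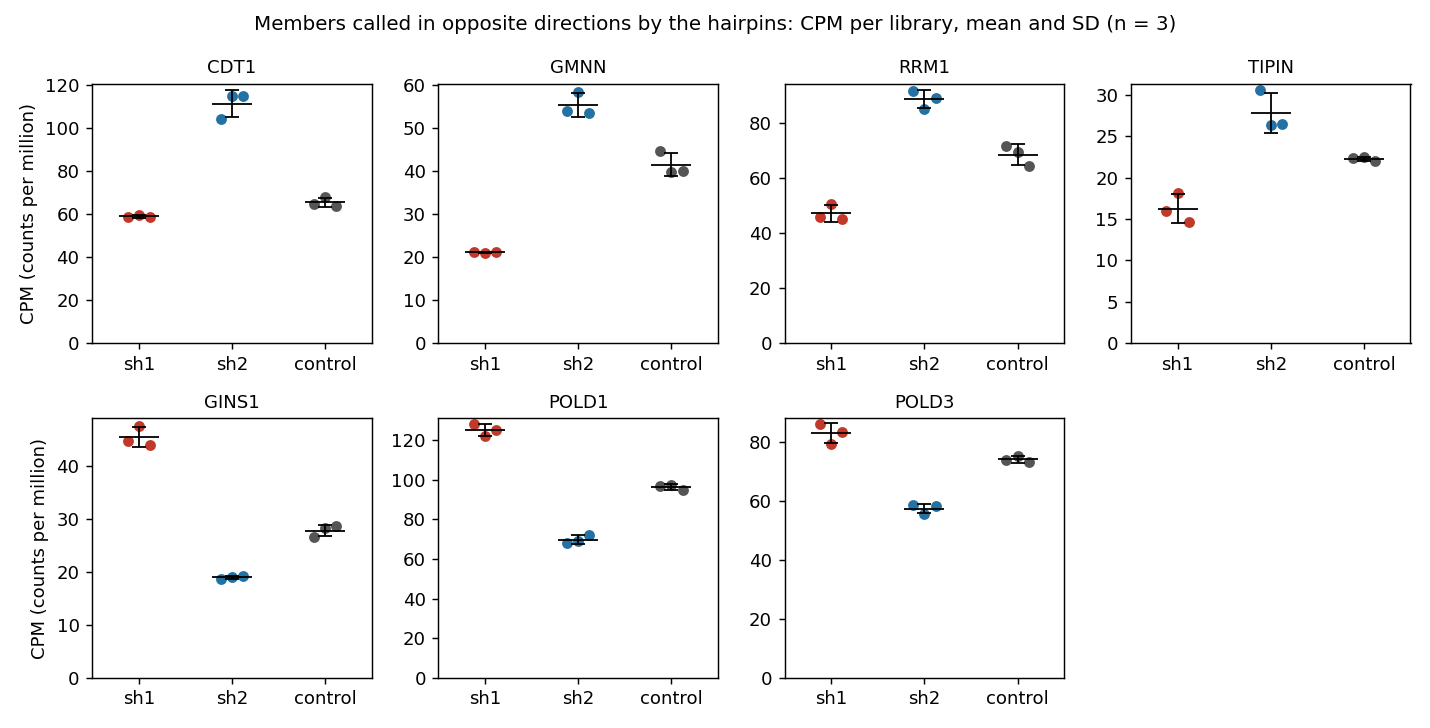
CPM in each library (points) of the 7 genes called lower than control with one hairpin and higher with the other, with the mean and SD (n = 3), for sh1, sh2 and control. CDT1, GMNN, RRM1 and TIPIN are lowest with sh1, and GINS1, POLD1 and POLD3 are lowest with sh2.

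Set beside the promoter letters, the 20 members with an E2F match had median log2 fold changes of 0.61 with sh1 and 0.59 with sh2, and the 29 members without one had 0.38 with sh1 and 0.24 with sh2. With sh1, 12 of the 20 with a match were called higher and 3 lower, and 22 of the 29 without one higher and 2 lower. With sh2, 16 of the 20 with a match were called higher and 1 lower, and 21 of the 29 without one higher and 6 lower. Over all genes tested, 34.7% were called higher and 34.6% lower with sh1, and 34.2% and 34.3% with sh2. All genes tested were not split by match. The log2 fold changes overlapped, from -0.98 to 1.56 with a match and from -0.54 to 1.80 without one for sh1, and from -0.27 to 1.22 with a match and from -1.11 to 0.84 without one for sh2. GMNN, CDT1 and TIPIN, called in opposite directions with the hairpins, hold a match. So do POLA1 and RFC3, called with neither hairpin, and CDC7, POLA2 and DTL, not called with sh1. This is a description of the members and was not tested.

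Other genes of the pathway were counted in the same fit, where 34.7% of all genes tested were called higher and 34.6% lower with sh1. With sh2 these shares were 34.2% and 34.3%. Of 22 further genes of the G1/S switch, 9 were called higher and 11 lower with sh1, and 12 higher and 7 lower with sh2 (medians -0.08 and 0.10). CDC25A, the phosphatase that activates CDK2, rose by 0.49 ± 0.062 with sh1 and 0.93 ± 0.058 with sh2. E2F5, a repressive family member, had -0.24 ± 0.083 with sh1 (adjusted p = 0.0113) and -0.81 ± 0.089 with sh2. CDK2 itself had -0.10 ± 0.042 with sh1 (adjusted p = 0.0413) and 0.03 ± 0.041 with sh2 (adjusted p = 0.598). RB1, encoding the retinoblastoma protein, was lower with sh1 (-0.24 ± 0.038) and higher with sh2 (0.41 ± 0.035), whereas TFDP1, the DNA-binding partner of E2F, was higher with sh1 (0.30 ± 0.034) and lower with sh2 (-0.30 ± 0.036). CCNA2, the S-phase cyclin A, was picked after its values were seen: it had 63.6 ± 2.27 CPM with sh1, 182 ± 6.53 with sh2 and 88.3 ± 3.3 in control (SD, n = 3).

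Of 36 further replisome and licensing genes, 18 were called higher and 8 lower with sh1, and 23 higher and 6 lower with sh2 (medians 0.13 and 0.26). PCLAF, a PCNA-binding protein, rose by 1.02 ± 0.047 with sh1 and 0.68 ± 0.049 with sh2. ORC5, an origin recognition subunit, had -0.70 ± 0.064 with sh1 and -0.33 ± 0.06 with sh2. Of 17 further nucleotide genes, 8 were higher and 4 lower with sh1, and 5 higher and 8 lower with sh2. NME1, a nucleoside diphosphate kinase, rose by 0.97 ± 0.04 with sh1 and 0.45 ± 0.041 with sh2. RRM2B, the p53-inducible alternative to RRM2, had -0.46 ± 0.061 with sh1 and -0.68 ± 0.062 with sh2. Among 20 mitosis genes set beside the replication list, 15 were higher and 1 lower with sh1, and 19 higher and 1 lower with sh2 (medians 0.42 and 0.86). Between the hairpins, 1 of these 20 was higher and 17 were lower with sh1 than with sh2. Of all genes tested, 34.2% were higher and 35.6% lower in that comparison. The median difference of the mitosis genes was -0.40, where the replication genes had 0.02.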

How the data were processed

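Per the labels, total RNA of 3 KYSE510 samples went into libraries for the BGISEQ-500. RSEM 1.2.12, DESeq2 1.4.5, Bowtie2 2.2.5, HISAT2 2.0.4 and the build hg19 appear in the submitters' processing notes, without roles. Per the file headers, each of 9 tables holds deposited expected counts, TPM and FPKM for 19266 Entrez genes. The series-wide FPKM table repeats these values and was not used. Symbols came from RefSeq (GRCh38.p14; 19223 identifiers matched).

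Expected counts were rounded and tested with edgeR 4.0.16 in R 4.3.3: filterByExpr with a minimum count of 10 (13580 genes), TMM, 1 quasi-likelihood fit of all 9 libraries by group, and Benjamini-Hochberg adjustment over all genes. CPM uses TMM-scaled totals, and SE is the absolute log2 fold change over the square root of F. The coefficient of variation of the fit was 2.33%. A floor of 3 counts is 0.187 to 0.204 CPM, for counting error only. The test was tried on simulated counts first. Alternatives were DESeq2 1.42.0, limma 3.58.1 on log2 of the authors' FPKM plus 1 or 0.1, other scalings, filters and samples.

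The tables of a sample differed by more than sampling noise (chi-square per gene 1.41 to 2.43), which does not make them separate cultures. Values in every library are given for the E2F, cyclin E and MCM genes, the highest and lowest member of each other role, members called lower with a hairpin or with neither called, and the 5 largest differences between hairpins. Highest and lowest go by the mean of both hairpins against control. Of the 3 context lists of the pathway, the highest and lowest genes by that mean and CDK2, RB1 and TFDP1 are named, and CCNA2 was added after its values were seen; some items of the lists are not reported here. Members and lists were chosen with earlier results of these data known.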

Additional observations from a re-analysis of the deposited data

Results flagged for a closer look

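Against the same control, 7 of the 57 members (12.3%) were called in opposite directions with the hairpins, near the 12.7% of all genes tested. Genes picked this way are bound to differ between sh1 and sh2, so the differences are given as sizes, with the adjusted p of edgeR's quasi-likelihood test over all genes. Lower with sh1 than with sh2 were GMNN, with a log2 difference of -1.39 (adjusted p = 4.7e-19), CDT1 with -0.92 (8.19e-18), RRM1 with -0.91 (1.43e-16) and TIPIN with -0.78 (1.65e-10). Higher with sh1 than with sh2 were GINS1 with 1.26 (3.76e-18), POLD1 with 0.84 (1.63e-18) and POLD3 with 0.53 (1.16e-12). Each group is 1 sample, so a difference between single cultures and an effect of the hairpin cannot be told apart.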

How the results depend on the processing

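Against control, 46 members were called with sh1 (40 higher, 6 lower) and 52 with sh2 (43 higher, 9 lower). The comparison of sh1 with sh2 gave 40 (25 higher, 15 lower). Most genes tested were called as well. In the same order, 34.7%, 34.2% and 34.2% of all genes tested were called higher, and 34.6%, 34.3% and 35.6% lower. A count of calls without direction therefore says little about the list. Requiring in addition a log2 fold change of at least 0.5 in size left 30, 30 and 16 of the 57 in these 3 comparisons, where 29.7%, 27.6% and 28.9% of all genes tested passed the same limits. Leaving out each library in turn gave 45 to 47, 50 to 52 and 40 to 41 calls, and medians of 0.45 to 0.48, 0.38 to 0.44 and 0.02 to 0.04. With library number as a replicate block the counts were 46, 52 and 40. Deviations from the group mean had correlations of -0.067 to 0.032 between same-numbered libraries and -0.076 to 0.069 between differently numbered ones. These correlations cannot tell whether libraries with the same number were handled together, which the labels do not state. DESeq2 called 45, 49 and 40 members. The shares of all genes called in the fits with a library left out, with the block and in DESeq2 are not given here. Over 36 named members and 3 contrasts (108 values), no called value changed sign under the alternatives run. Among these 108 values a call changed for 3: CCNE1 with sh2, as given above, GINS2 between the hairpins without sh1 library 3 (-0.15, adjusted p = 0.0416), and RFC3 between the hairpins without sh2 library 1 (0.15, adjusted p = 0.00711). The cause was not tested. The other members were not followed gene by gene under the alternatives, and the lower DESeq2 counts include calls lost among them. With the tables of each sample summed, medians were 0.45, 0.41 and 0.02, and no test is possible. The lowest member, E2F8 in control, had 8.52 to 10.3 CPM, against 0.187 to 0.204 CPM for a floor of 3 counts.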
